A study of Mus musculus with 54 samples.

Results

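Genes of the proteasome and its regulators were followed across both sides of single mouse ovarian follicles, with and without human chorionic gonadotropin (hCG), the ovulatory stimulus. They were taken as every gene in the deposited tables whose symbol begins with Psma to Psmg and a number, which gave 50 of 25149 genes. The proteasome is the cell's main machine for degrading ubiquitin-tagged proteins. Its 20S core is a barrel of outer rings of alpha subunits (Psma) and inner rings of beta subunits (Psmb), and some of the beta subunits carry the cutting sites. The 19S cap recognises, unfolds and feeds substrates through a ring of ATPases (Psmc) and a set of non-ATPase subunits (Psmd). Activators (Psme) can open the core in place of the cap, Psmf1 inhibits or regulates it in vitro, and the Psmg chaperones assemble it. Interferon replaces the cutting subunits with immunoproteasome versions, which favour peptides for MHC class I. In ovulating follicles, proteolysis and the remodelling of granulosa cells after the gonadotropin surge are well known, and the proteasome belongs to the general machinery of every cell in them.

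Secondary follicles came from CD-1 mice of 14 to 16 days of age and grew in alginate for 8 days. They were then kept for 12 h in maturation medium with or without hCG, and follicles were cut into a ruptured and an unruptured side. Both media also held serum, EGF and recombinant FSH. Without hCG the sides are called putative. Single sides were sequenced by Smart-Seq2, giving 15 libraries of the putative unruptured side, 14 of the putative ruptured side, 12 of the unruptured side post-hCG and 13 of the ruptured side post-hCG. All groups came from this outbred stock and culture system, with no blood supply or ovary around the follicle. The labels do not state which sides were cut from the same follicle or which follicles came from separate animals, so that the p-values measure only the spread between these samples. The column names end in codes written like plate wells, though the labels do not say what they are. By these codes libraries without hCG lay in other rows (F to H) than those with hCG (B to D). Medium and row thus cannot be told apart. Side also largely followed row. Post-hCG, 8 unruptured libraries lay in B and 4 in C, against 5 ruptured in C and 8 in D. Without hCG, 10 putative unruptured libraries lay in F and 5 in G, against 5 putative ruptured in G and 9 in H. The part of row in any comparison was not tested.

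Totals ran from 1497138 to 2834794 counts per library with a median of 2157135. In the labels the tissue is a cumulus-oocyte complex, but by the study's methods it was the follicle side left after that complex had been removed. The summed level of 7 oocyte markers had medians of 0.20, 0.15, 0.15 and 0 TPM (transcript level scaled to gene length and library) in the 4 groups in the order above, with one putative unruptured library at 127 TPM, and Zp2, Zp3 and Ooep were at 0 in all ruptured libraries post-hCG. The summed level of 6 granulosa markers had medians of 2611, 9096, 1387 and 1150 TPM, with ranges of 801 to 5403, 3184 to 13500, 881 to 1933 and 750 to 1399 TPM, and 7 theca and stroma markers had medians of 420, 26.4, 328 and 5.98 TPM. The sides thus differed in the level of cell type markers, and in bulk samples fewer cells of a type and less RNA per cell cannot be told apart. Of 5 tested granulosa markers, 2 rose and 3 fell with hCG on the unruptured side, against 25.4% and 27.7% of all genes. On the ruptured side 1 rose and 3 fell, against 29.7% and 30.4%. Nr5a2 rose on both sides (log2 fold changes of 2.12 and 1.56, edgeR), and Cyp19a1 fell on both (-5.47 and -8.29). The counts of the 50 genes made up a median of 0.485%, 0.506%, 0.446% and 0.409% of all counts in the 4 groups.

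The genes fell into 7 alpha subunits, 7 standard beta subunits, 3 immunoproteasome subunits (Psmb8, Psmb9 and Psmb10), 2 tissue-specific core subunits (Psma8 of the testis and Psmb11 of the thymus), 6 ATPases, 14 non-ATPase genes, 5 activator genes, 1 inhibitor and 4 assembly chaperones. The symbol Psmc3ip also matched, but it encodes a partner of meiotic recombination enzymes and no proteasome subunit. Of the 50 genes, 45 had enough counts to be tested between any pair of groups. The 5 others were Psma8, Psmb11, Psmb9, Psme2b and Psmc3ip, of which Psmc3ip, with group medians of 2.60 to 4.37 CPM, entered the interaction test alone (0.57, FDR 0.53, edgeR). All 50 had 1 position in the GENCODE M21 annotation of GRCm38.

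Levels per length (TPM) spread widely among subunits that occur in equal numbers in the complex. Psma3 stood highest with a median of 588 TPM over the 54 libraries and a range of 318 to 900.2 TPM. Psmb1 followed at 224, Psmb6 at 195 and Psma7 at 187 TPM, whereas Psmb7, of the same ring as Psmb1 and Psmb6, had group medians of 35.6 to 41.2 TPM. The length used for Psma3 bears on this order. It had 1.72 TPM for each normalised CPM (counts scaled to library size by TMM), against a median of 0.62 over the 35 genes with at least 20 CPM, and no other of the 35 had a higher ratio. The ranges of Psmb1, Psmb6 and Psma7 over the libraries overlapped. Their group medians were 205 to 238 TPM for Psmb1, 161 to 217 TPM for Psmb6 and 153 to 205.5 TPM for Psma7. The order of these genes within single libraries was not tested.

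Regulators lay far below the core. The assembly chaperone Psmg3 had a median of 6.19 TPM, the nuclear activator subunit Psme3 4.32 TPM, and Psme4, the large single-chain activator PA200, 1.54 TPM. By contrast Psme1 and Psme2, the paired subunits of the interferon-inducible activator PA28, had group medians of 79.9 to 125 and 57.0 to 91.6 TPM. The tissue-specific subunits were near the limit of detection. Psma8 was at 0 in 5 of 15, 9 of 14, 4 of 12 and 6 of 13 libraries and Psmb11 in 4, 5, 4 and 4, with group medians up to 0.21 TPM. Psme2b, a near-identical copy of Psme2 whose reads could be split between both, was at 0 in 38 of 54 libraries.

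**Figure D1:**
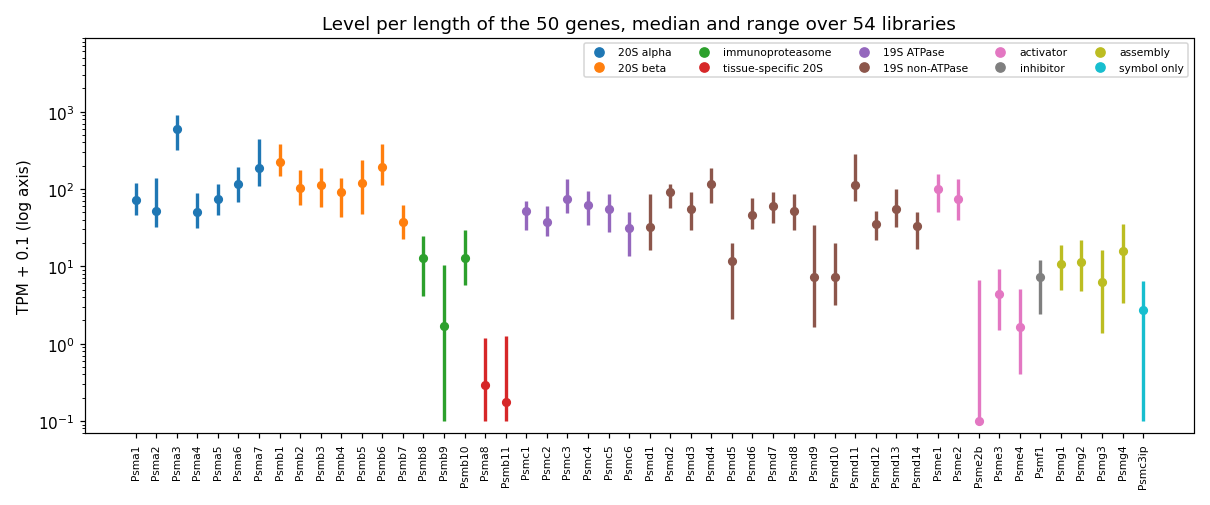
Level per length of each of the 50 genes as TPM + 0.1 on a log axis, with the median (point) and the range (line) over the 54 libraries, coloured by subcomplex. Psma3 lies highest at a median of 588 TPM, Psmb1 follows at 224 TPM, and Psma8, Psmb11 and Psme2b lie near 0.

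The promoters of 4 genes on which the results turn are shown for their motifs, as 250 bases before to 50 after the RefSeq start in GRCm38.p6, 5′ to 3′ on the gene's strand. Psma2 and Psme3 (chr13:14612992-14613291 and chr11:101315963-101316262, both plus strand) are shown because their responses differed between sides, Psmb5 (chr14:54617946-54618245, minus strand) as a catalytic subunit that followed the other core genes closely, and Psme1 (chr14:55578244-55578543, plus strand) as a subunit that fell on both sides. Capitals mark CCAAT or its reverse complement in the first pair, TGACNNNGC, the core of the element bound by Nrf1 and Nrf2, in Psmb5, and, in Psme1, the reverse complement of GAAA, any 2 bases and GAAA again, which is the core of the interferon-response element.
Psma2: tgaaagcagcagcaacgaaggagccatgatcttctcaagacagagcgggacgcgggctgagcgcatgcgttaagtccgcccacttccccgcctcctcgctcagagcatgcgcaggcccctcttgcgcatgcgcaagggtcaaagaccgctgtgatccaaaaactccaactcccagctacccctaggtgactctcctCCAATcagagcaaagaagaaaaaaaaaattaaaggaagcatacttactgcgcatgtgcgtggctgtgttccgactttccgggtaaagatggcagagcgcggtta
Psme3: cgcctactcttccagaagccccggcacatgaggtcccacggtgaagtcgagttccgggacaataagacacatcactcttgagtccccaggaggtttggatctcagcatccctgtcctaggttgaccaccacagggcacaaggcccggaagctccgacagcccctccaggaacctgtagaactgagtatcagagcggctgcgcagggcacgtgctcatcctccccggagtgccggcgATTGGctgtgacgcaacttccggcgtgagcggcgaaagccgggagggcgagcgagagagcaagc
Psmb5: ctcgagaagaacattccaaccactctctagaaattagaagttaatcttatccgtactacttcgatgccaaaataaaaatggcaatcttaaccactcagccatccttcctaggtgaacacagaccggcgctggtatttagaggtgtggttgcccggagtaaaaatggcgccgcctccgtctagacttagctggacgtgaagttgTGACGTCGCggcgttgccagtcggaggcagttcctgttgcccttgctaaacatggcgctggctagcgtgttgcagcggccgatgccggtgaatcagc
Psme1: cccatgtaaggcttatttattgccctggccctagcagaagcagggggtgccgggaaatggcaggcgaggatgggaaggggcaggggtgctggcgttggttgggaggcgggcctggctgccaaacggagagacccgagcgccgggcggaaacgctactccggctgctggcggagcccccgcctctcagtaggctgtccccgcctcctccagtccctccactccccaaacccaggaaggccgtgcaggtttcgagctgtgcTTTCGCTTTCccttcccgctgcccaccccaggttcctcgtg
Windows were found for 42 of the 50 genes. On either strand TGACNNNGC occurred in those of 6 genes (14.3%: Psmb5, Psmb6, Psmc6, Psmd12, Psmd9 and Psme4) and in 12.4% of 32851 windows of all genes. The interferon-response core occurred in 5 (11.9%: Psmb3, Psmd4, Psmd9, Psme1 and Psmg4) and in 3.44% of all, and CCAAT in 15 (35.7%) and in 37.4% of all. Counted by window, as for all genes, the 3 motifs occurred in 13.3%, 11.1% and 33.3% of the 45 windows of these genes. A match is a description of the letters in this window.

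Within groups, subunits of the core and cap varied together from library to library. Over the 32 genes of the standard core and cap with a median of at least 20 CPM in every group, the median correlation of log levels was 0.665 across 496 pairs and 54 libraries, each centred on its group, with a range from -0.16 to 0.91. The pairs share libraries and scaling, so this is a description. Psma7, Psmb5 and Psmb6 followed the others most closely with mean correlations of 0.72, 0.71 and 0.71. Psmd3, a lid subunit, had a mean correlation of -0.02, and Psmd5, a chaperone of cap assembly, one of 0.20. The sum of all 50 genes ranged from 3283 to 7467 CPM in putative unruptured and from 3878 to 7081 CPM in putative ruptured libraries, and more narrowly post-hCG, from 4130 to 5423 CPM (unruptured) and from 3885 to 5307 CPM (ruptured). The highest sum was that of putative unruptured replicate 10.

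The first comparison set the putative ruptured against the putative unruptured side without hCG. Of the 45 tested genes, 1 rose and 2 fell on the putative ruptured side, whereas 8.84% of all 9063 tested genes rose and 8.96% fell (edgeR quasi-likelihood F-test, FDR of 0.05). The median log2 fold change was 0.02 over the 45 genes and -0.01 over all tested genes. The other 42 lay between -0.33 and 0.29 on the log2 scale and did not pass the test. All 6 ATPases, all 14 non-ATPase genes and all 7 standard beta subunits were among them, as were all 4 assembly chaperones.

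Psma2, the alpha2 subunit of the outer ring, was the member that rose. Its lowest, median and highest levels were 122, 176 and 392 normalised CPM on the putative unruptured side and 213, 314 and 518 CPM on the putative ruptured side. All 14 putative ruptured libraries lay above the median of the putative unruptured side and 5 lay above its highest library, while the ranges overlapped. The log2 fold change was 0.74 (SE 0.17, FDR 0.00253, edgeR), and it still passed with any single library left out, at 0.67 to 0.83. The other 6 standard alpha subunits gave 0.02 to 0.15 and did not pass. Psma2 shared no exon base with another gene in the annotation. Between these sides its level moved with that of the granulosa markers, of which 4 of 5 tested rose on the putative ruptured side. With hCG their sum went from a median of 2611 to 1387 TPM on the unruptured side, where Psma2 did not pass (-0.31, FDR 0.0892, edgeR). On the ruptured side the sum went from 9096 to 1150 TPM, and Psma2 fell (-0.99). The part of these markers in the result was not tested.

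Psme3 and Psmb10 were lower on the putative ruptured side. Psme3 encodes PA28 gamma, a nuclear activator that forms a ring of identical subunits and promotes breakdown without ubiquitin. It had 6.4, 17.9 and 26.6 CPM as lowest, median and highest level on the putative unruptured side and 5.7, 11.2 and 21.6 CPM on the putative ruptured side. In 12 of 14 putative ruptured libraries it lay below the unruptured median, and 2 lay below all unruptured libraries. The log2 fold change was -0.58 (SE 0.19, FDR 0.0296, edgeR), and it missed the threshold without putative unruptured replicate 9 (-0.54, FDR 0.0521) and without putative ruptured replicate 6 (-0.53, FDR 0.0534) or 7 (-0.55, FDR 0.0514). On log2(TPM + 1) with limma it was -0.42 with an FDR of 0.124. There 1 of 48 members was higher and 0 were lower, against 456 and 598 of all 9876 genes.

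Psmb10 encodes the immunoproteasome counterpart of Psmb7. It had 12.0, 19.1 and 37.1 CPM on the putative unruptured side and 7.7, 14.9 and 19.7 CPM on the putative ruptured side, the latter group lying below the unruptured median in 13 of 14 libraries. The log2 fold change was -0.46 (SE 0.15, FDR 0.0256, edgeR), and without putative unruptured replicate 10 it was -0.37 with an FDR of 0.0509. On log2(TPM + 1) it was -0.31 with an FDR of 0.292 (limma). Between these sides markers of other cells moved with it. The summed level of 8 immune markers ran from 0.11 to 162 TPM (median 32.7) in putative unruptured libraries. There 7 of the 8 had medians under 1 TPM. In putative ruptured libraries the sum ran from 0 to 36.6 TPM (median 0.62), and all 8 had medians under 1 TPM. Of the 8, Lyz2 alone had enough counts to be tested between these sides (-2.87, FDR 0.00397, edgeR). The 7 theca and stroma markers ran from 24.8 to 2403 and from 5.0 to 479 TPM. Post-hCG the theca and stroma sum had medians of 328 and 5.98 TPM on the unruptured and ruptured side. The immune sum had medians of 13.7 and 0.86 TPM there, and Psmb10 did not pass (-0.12, FDR 0.543, edgeR). The part of these cells in the Psmb10 difference was not tested.

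The second comparison set the ruptured against the unruptured side post-hCG. Of the 45 tested genes 1 rose, Psme3, and none fell, against 10% and 11.3% of 8585 genes. DESeq2 also called 1 member higher and 0 lower at an FDR of 0.05, against 948 and 1323 of all 14430 genes. The median log2 fold change was -0.04 over the 45 genes and 0.01 over all. When libraries were scaled by their totals alone, the median of all genes shifted to -0.14. Of the 45 genes 12 then passed as lower and 0 as higher, against 1830 and 397 of all 8585. In limma on log2(TPM + 1) the median of all genes was -0.21. There 18 of 47 members passed as lower and 1 as higher, against 2166 and 214 of all 9624 genes. Relative to the median of all genes, the median of the 45 lay at -0.05 in both the TMM and the total-scaled fit.

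Psme3 took the opposite direction post-hCG to the one it had without. It had 10.3, 16.9 and 23.9 CPM on the unruptured side and 17.8, 22.4 and 34.0 CPM on the ruptured side. All 13 ruptured libraries lay above the unruptured median and 5 above its highest library. The log2 fold change was 0.46 (SE 0.14, FDR 0.0147, edgeR). It was positive but past the threshold with neither total scaling (0.32, FDR 0.0822), nor limma on log2(TPM + 1) (0.20, FDR 0.318), nor a joint fit of all 4 groups (0.47, FDR 0.0517). Psma2 had 141, 166 and 219 CPM on the unruptured and 122, 174 and 227 CPM on the ruptured side, with a log2 fold change of 0.04 (FDR 0.841, edgeR) that was -0.26 on log2(TPM + 1) (FDR 0.0408, limma). Psmb10 did not pass (-0.12, FDR 0.543, edgeR).

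**Figure D2:**
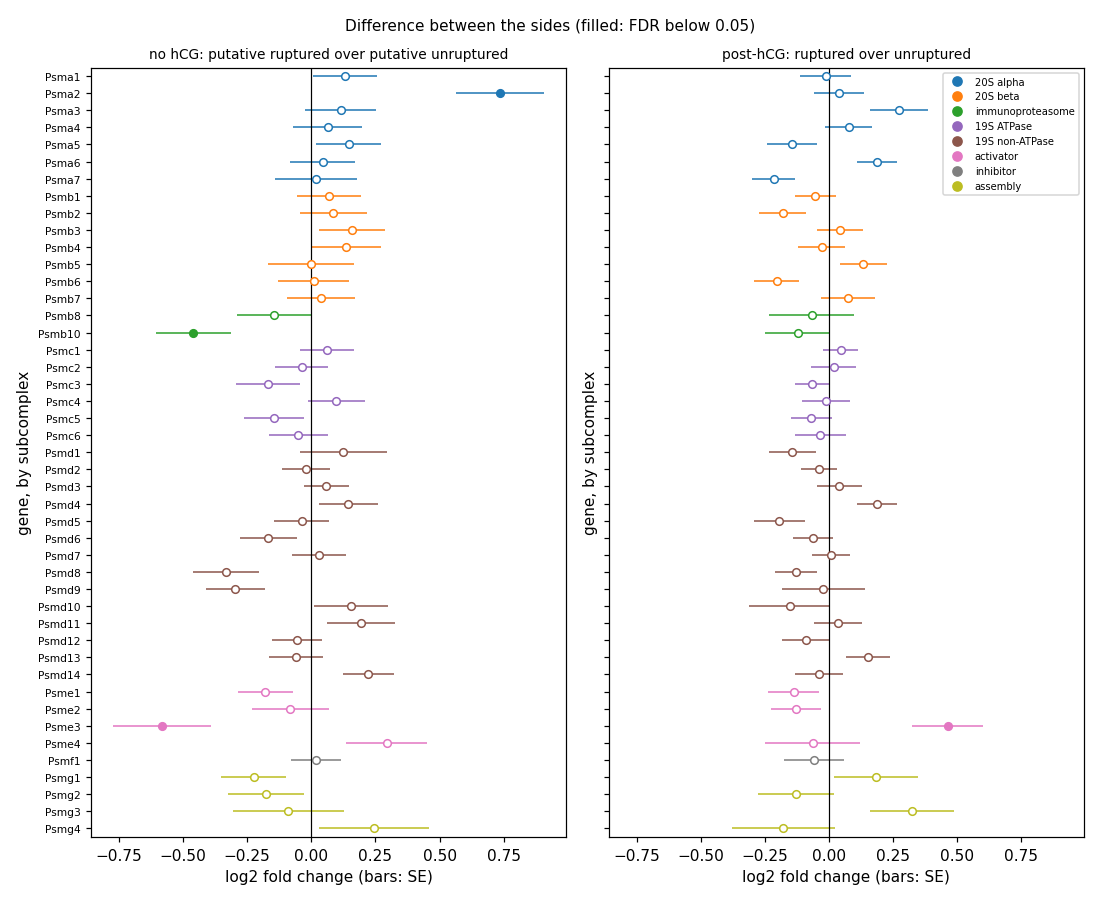
Log2 fold change with its SE for each of the 45 tested genes, by subcomplex, between the putative sides without hCG (left) and the sides post-hCG (right), with filled points at an FDR below 0.05. Psma2 at 0.74, Psme3 at -0.58 and Psmb10 at -0.46 are filled on the left and Psme3 alone, at 0.46, on the right, where its call was lost when libraries were scaled by their totals.

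The response to hCG was then taken on each side, as a fold change of the post-hCG libraries over those without hCG. It reached more of the genes than the comparison of sides, as it did over all genes tested. On the unruptured side 6 of 45 genes rose and 10 fell, against 25.4% and 27.7% of all 9320 tested genes. On the ruptured side 9 rose and 15 fell, against 29.7% and 30.4% of 8531 genes. The medians over the 45 genes were -0.08 and -0.04 and those over all genes -0.03 and -0.00. The split depended on the scaling. With library totals alone the median of all genes moved to -0.25 and -0.33. On the unruptured side 2 members then rose and 22 fell, against 1455 and 3844 of all 9320 genes. On the ruptured side 2 rose and 29 fell, against 1376 and 4242 of all 8531. In limma on log2(TPM + 1) the split on the ruptured side was 4 higher and 16 lower of 48 members. Over all 9702 genes it was 1568 higher and 3005 lower, with their median at -0.14. Against the median from library totals the 45 genes lay at -0.03 and -0.05.

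The calls of both sides overlapped without a gene of opposite direction. Of the genes that rose, 4 did so on both sides (Psmd2, Psmd3, Psmd4 and Psmg3), out of 6 on the unruptured and 9 on the ruptured side. All 10 that fell on the unruptured side were among the 15 that fell on the ruptured side. The comparisons share no libraries, and such overlap was common among the 8444 genes tested in both, of which 21.1% rose on both sides, 21.5% fell on both and 0.77% passed in opposite directions, against 8.89%, 22.2% and 0 of the 45 members. Of the members, 2 passed on the unruptured side alone (Psmb3 and Psmg4) and 10 on the ruptured side alone. These were 4.44% and 22.2% of the 45, against 10.6% and 16.7% of the 8444 genes. On neither side passed 42.2% of members, against 29.4% of all. For all but Psma2 and Psme3 the difference between the sides' responses did not itself pass the test. In 18 of the 45 genes no comparison passed, and the like share of all genes was not counted.

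In the core, the 7 alpha subunits did not pass the test on the unruptured side and included 1 higher and 2 lower genes on the ruptured side. Psma2 fell there with a log2 fold change of -0.99 (SE 0.14, FDR 1.81e-07, edgeR), from a median of 314 to one of 174 CPM. Of 13 ruptured libraries post-hCG, 12 lay below the lowest putative ruptured library at 213 CPM. Psma7, another alpha subunit, fell by 0.31 (SE 0.11, FDR 0.0198), from a median of 209 to 189 CPM. Psma3 gave 0.28 (SE 0.12, FDR 0.0421), a value that missed the threshold in 14 of 27 fits with 1 library left out, at 0.23 to 0.27 and FDRs up to 0.0842, and was -0.06 with library totals alone.

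Among the standard beta subunits, Psmb5 carries the chymotrypsin-like site. Without hCG its lowest, median and highest levels were 40.7, 82.5 and 170 CPM (putative unruptured side) and 55.8, 81.0 and 148 CPM (putative ruptured side). Post-hCG they were 84.0, 99.2 and 125 CPM (unruptured) and 83.5, 121 and 158 CPM (ruptured). All 13 ruptured libraries lay above the putative ruptured median and 1 above its range, with a log2 fold change of 0.40 (SE 0.13, FDR 0.00734, edgeR) that was 0.06 with library totals alone (FDR 0.678). On the unruptured side the value was 0.26 (FDR 0.156). Psmb2, a subunit without a cutting site, fell on the ruptured side by 0.33 (FDR 0.0135), and Psmb3, another such subunit, rose on the unruptured side by 0.35 (FDR 0.0162), a value that was 0.14 with library totals alone (FDR 0.288). Of the other catalytic subunits, Psmb6 had group medians of 160, 169, 180 and 172 CPM and did not pass on the unruptured (0.06) or ruptured side (-0.15). Psmb7 had medians of 50.5, 58.4, 60.3 and 62.8 CPM and did not pass either (0.06 and 0.10).

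The immunoproteasome subunit Psmb8, which takes the place of Psmb5, fell on both sides. Its lowest, median and highest levels were 16.9, 25.1 and 39.4 CPM on the putative unruptured side and 8.6, 16.1 and 24.7 CPM on the unruptured side post-hCG. All 12 libraries post-hCG lay below the earlier median and 7 below the earlier range (log2 fold change -0.64, SE 0.15, FDR 0.000677, edgeR). In ruptured sides it went from 9.4, 25.0 and 29.6 CPM to 9.3, 15.6 and 22.4 CPM, with 13 of 13 libraries below the earlier median and 1 below the earlier range (-0.55, SE 0.16, FDR 0.00312). Between the sides Psmb8 gave -0.15 without and -0.07 with hCG, and neither value passed the test. Immune markers had a summed median of 32.7 TPM (0.11 to 162) on the putative unruptured side and 13.7 TPM (1.03 to 101) post-hCG. In each of these groups 7 of the 8 marker genes had medians under 1 TPM. Lyz2, the only immune marker tested between these 2 groups, did not pass (-0.58, FDR 0.48, edgeR). In ruptured sides the sum was 0.62 TPM (0 to 36.6) and 0.86 TPM (0.08 to 3.60), with Adgre1 and Tyrobp at 0 in all post-hCG libraries. The part of immune cells in the Psmb8 values was not tested. About 14.7% of the exon bases of Psmb8 also lie in Gm20496 on the opposite strand, and the library kit does not mark strand. Psmb10 did not pass on either side (-0.28 and 0.06), and Psmb9 had group medians of 0.92 to 2.21 CPM and was too low to test.

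As a share of the summed TPM of the 6 catalytic genes, Psmb8, Psmb9 and Psmb10 took a median of 8.35% on the putative unruptured side (range 6.07% to 12.6%) and 8.15% on the putative ruptured side (4.22% to 10.7%). Post-hCG the medians were 6.41% (3.85% to 9.26%) and 5.75% (4.59% to 8.15%). The groups overlapped, and the standard subunits made up most of the catalytic transcript in every library.

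**Figure D3:**
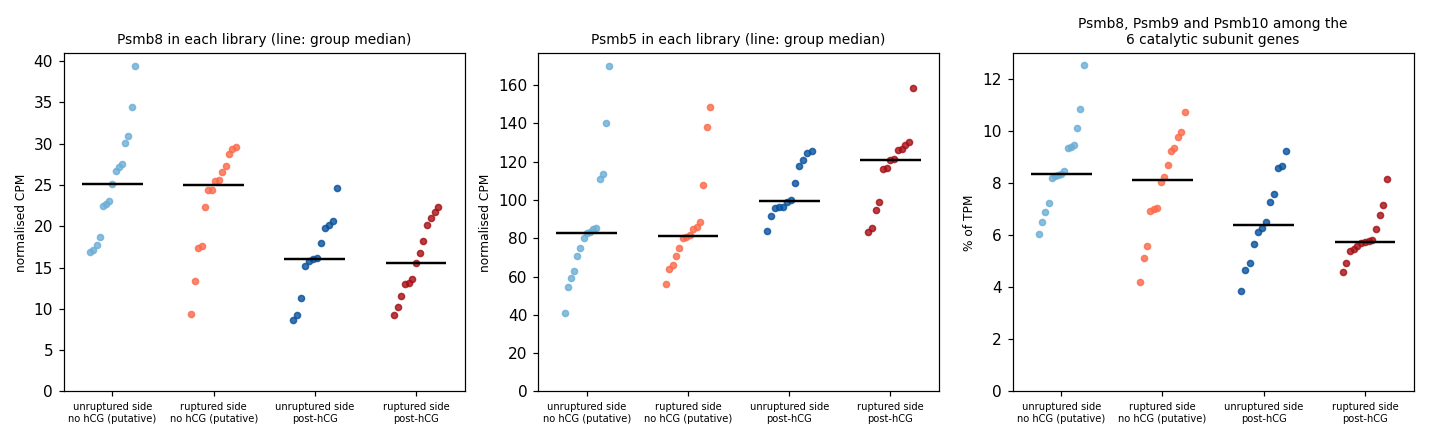
Normalised CPM of Psmb8 (left) and of its standard counterpart Psmb5 (middle) and the percentage of catalytic subunit TPM taken by Psmb8, Psmb9 and Psmb10 (right) in each library of the 4 groups, with the group median as a line. Psmb8 medians go from 25.1 and 25.0 CPM without hCG to 16.1 and 15.6 CPM post-hCG, and the share goes from 8.35% and 8.15% to 6.41% and 5.75%, with overlapping groups.

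In the cap, non-ATPase genes passed in both directions, and the 2 of 6 ATPases that passed, Psmc3 and Psmc6, fell on both sides. Psmc3, which binds ubiquitin chains, fell by 0.36 on the unruptured side (SE 0.12, FDR 0.00987, edgeR) and by 0.25 on the ruptured side (SE 0.09, FDR 0.0147), and 8.2% of its exon bases are shared with Slc39a13 on the opposite strand. Psmc6 gave -0.29 (FDR 0.0284) and -0.27 (FDR 0.0271). The first was lost without unruptured replicate 1, 7 or 10 (each -0.27, FDRs 0.0513, 0.0521 and 0.0519) or putative unruptured replicate 10 (-0.23, FDR 0.0524), and the second without ruptured replicate 3, 5 or 13 (-0.23, -0.22 and -0.24, FDRs 0.0548, 0.0691 and 0.0583). In limma on log2(TPM + 1) the value of Psmc6 on the unruptured side was -0.02 (FDR 0.91).

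Among the 14 non-ATPase genes, 3 rose and 4 fell on the unruptured side and 4 rose and 5 fell on the ruptured side. Psmd3, the lid subunit that followed the other genes least, had 120, 153 and 196 CPM on the putative unruptured side and 158, 205 and 249 CPM post-hCG, with 7 of 12 libraries above the earlier range. The log2 fold change was 0.39 (SE 0.09, FDR 0.000807, edgeR). On the ruptured side it went from 135, 153 and 199.9 CPM to 172, 207 and 251 CPM, with 9 of 13 libraries above the earlier range (0.38, SE 0.08, FDR 0.00023), but was 0.17 and 0.06 with library totals alone and passed on neither side. Psmd4, a receptor for ubiquitin chains, had medians of 154, 172, 194 and 229.8 CPM in the 4 groups and rose by 0.28 and 0.33 on the log2 scale (FDR 0.0133 and 0.00645), and its call was also lost with library totals on both sides. Psmd8 rose on the ruptured side by 0.31 (SE 0.09, FDR 0.00307), against -0.02 with library totals. Psmd2, the scaffold that binds shuttle proteins, gave 0.23 (FDR 0.0442) and 0.22 (FDR 0.0154), but the first missed the threshold in 14 of 27 fits with 1 library left out (0.20 to 0.22, FDRs up to 0.0758) and the second was -0.12 with library totals.

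Psmd10 (gankyrin) and Psmd5 are chaperones of the cap's base that leave the finished particle, and both fell on both sides. Psmd10 went from 10.8, 15.1 and 32.8 to 6.8, 11.7 and 15.4 CPM on the unruptured side (-0.52, SE 0.15, FDR 0.00425, edgeR), with 10 of 12 libraries below the earlier median. In ruptured sides it went from 12.7, 19.4 and 30.8 to 5.6, 10.1 and 17.9 CPM, with 9 of 13 libraries below the earlier range (-0.82, SE 0.15, FDR 2.88e-05). Psmd5 went from 25.0, 34.1 and 48.7 to 17.2, 27.0 and 31.6 CPM (-0.44, SE 0.11, FDR 0.00128) and from 25.1, 34.4 and 49.8 to 19.3, 21.7 and 29.4 CPM, where 10 of 13 libraries lay below the earlier range (-0.58, SE 0.10, FDR 4.44e-06). Its fall on the unruptured side did not pass in limma on log2(TPM + 1) (-0.29, FDR 0.232). The related chaperone Psmd9 did not pass (-0.27 and 0.01).

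Of the other scaffold and lid genes, Psmd1, the second large scaffold, gave -0.34 (FDR 0.0288, edgeR) and -0.60 (SE 0.15, FDR 0.000785). The first was lost without unruptured replicate 10 (-0.32, FDR 0.0511) or 12 (-0.30, FDR 0.0573) or putative unruptured replicate 1 (-0.25, FDR 0.0579) or 10 (-0.26, FDR 0.0565), and was -0.26 with an FDR of 0.0872 in limma on log2(TPM + 1). Psmd11, a lid subunit, fell by 0.32 and 0.47 (FDR 0.0118 and 0.00168). Psmd14, the enzyme that removes ubiquitin chains at the cap, had 60.1, 79.3 and 109 CPM on the putative ruptured side and 48.3, 64.7 and 79.3 CPM post-hCG, with 6 of 13 libraries below the earlier range (-0.38, SE 0.09, FDR 0.000767), and on the unruptured side it did not pass (-0.13, FDR 0.287).

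The assembly chaperones of the core went up where they passed. Psmg3 had 2.5, 5.5 and 7.6 CPM on the putative unruptured and 5.4, 7.3 and 14.3 CPM on the unruptured side post-hCG (0.61, SE 0.17, FDR 0.00363, edgeR). On the ruptured side it went from 1.5, 4.7 and 9.4 to 6.0, 9.3 and 14.2 CPM, all 13 libraries lying above the earlier median and 6 above the earlier range (1.03, SE 0.21, FDR 6.43e-05). These levels rest on 132 to 261 counts per group, and 9.7% of its exon bases are shared with Gm26938. Psmg4, its partner, went from 0.94, 5.55 and 10.4 to 4.6, 7.8 and 13.1 CPM on the unruptured side (0.76, SE 0.22, FDR 0.00437). Psmg1 rose on the ruptured side by 0.58 on the log2 scale (SE 0.16, FDR 0.00236), against 0.24 with library totals (FDR 0.193), and Psmg2 did not pass on either side.

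The activators split. Psme1 and Psme2 fell on both sides, by 0.30 and 0.30 on the unruptured side (FDR 0.0119 and 0.0327, edgeR) and by 0.25 and 0.34 on the ruptured side (FDR 0.0465 and 0.0379). Psme1 went from medians of 101 and 88.1 CPM to 82.4 and 69.4 CPM. On the ruptured side its call was lost in 16 of 27 fits with 1 library left out (FDRs up to 0.102) and that of Psme2 in 10 (up to 0.0839), and on the unruptured side that of Psme2 was lost in 6 (up to 0.0604). Psme4 gave -0.44 on the ruptured side (FDR 0.0254), which was -0.38 with an FDR of 0.0603 without ruptured replicate 4 and -0.23 with an FDR of 0.306 in limma on log2(TPM + 1). Psmf1, which regulates the core as an inhibitor, fell by 0.29 and 0.36 (FDR 0.0188 and 0.00595), and the first was -0.10 in limma on log2(TPM + 1) (FDR 0.533).

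Psme3 stood apart from these. On the ruptured side its lowest, median and highest levels went from 5.7, 11.2 and 21.6 CPM without hCG to 17.8, 22.4 and 34.0 CPM post-hCG. All 13 libraries post-hCG lay above the earlier median and 8 above the earlier range. The log2 fold change was 0.94 (SE 0.16, FDR 8.19e-06, edgeR), and it passed under all 10 alternatives at 0.60 to 1.00. On the unruptured side it was -0.11 (SE 0.17, FDR 0.625).

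**Figure D4:**
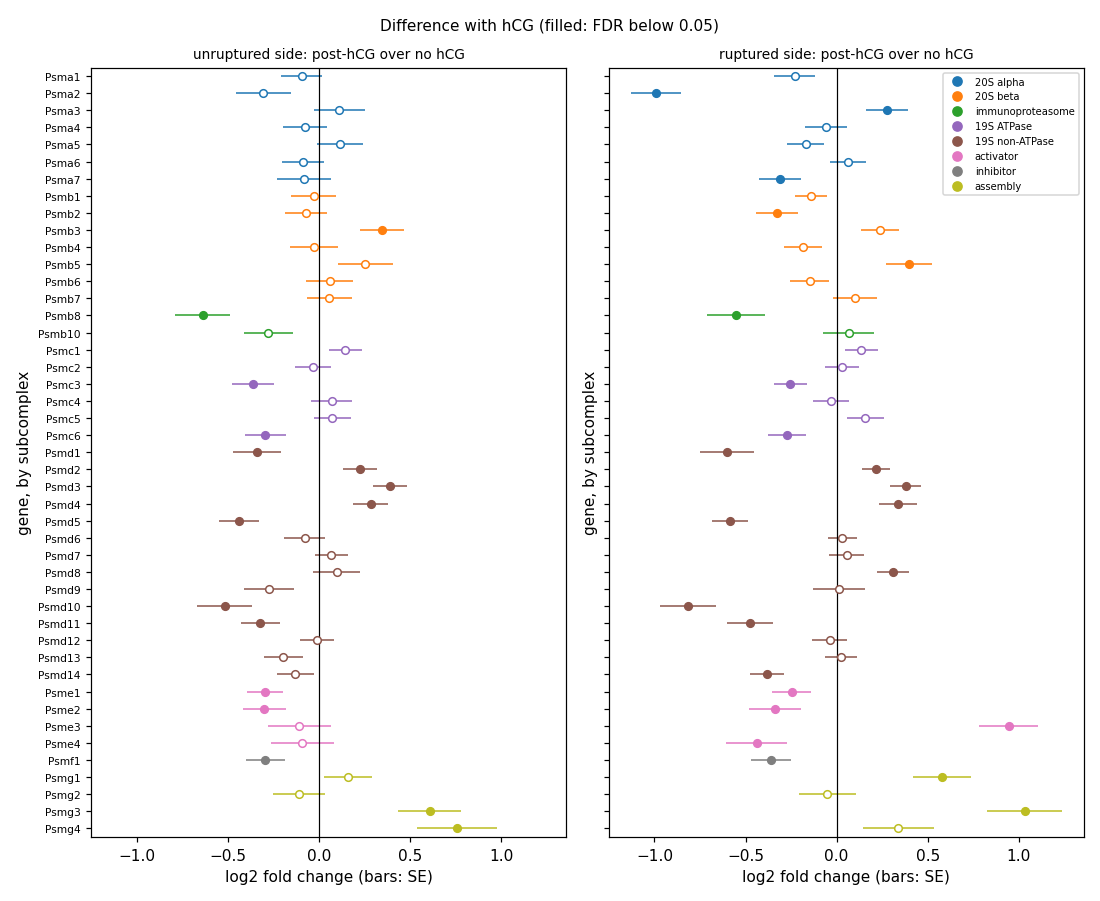
Log2 fold change with its SE of post-hCG over no-hCG libraries for each of the 45 tested genes, by subcomplex, on the unruptured (left) and ruptured side (right), with filled points at an FDR below 0.05. Psmb8, Psmd5, Psmd10 and Psmd11 lie below 0 and Psmg3 above 0 on both sides, Psma2 at -0.99 and Psme3 at 0.94 are filled on the right alone, and with libraries scaled by their totals Psma3, Psmd2 and Psmd8 on the right fall below 0.

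The interaction of side and medium, fitted over all 54 libraries, tested whether the response to hCG differed between the sides. Of 46 genes, 1 was positive and 1 negative, against 4.25% and 4.65% of 10013 genes. For Psme3 the response on the ruptured side exceeded that on the unruptured side by 1.05 on the log2 scale (SE 0.24, FDR 0.00336, edgeR). For Psma2 the difference was -0.69 (SE 0.21, FDR 0.0262). Neither call was lost when any of the 54 libraries was left out, with ranges of 0.99 to 1.15 and -0.78 to -0.63. On log2(TPM + 1) in limma the value for Psme3 was 0.62 (FDR 0.0793), and that for Psma2 -0.96 (FDR 0.000301). On that scale the median of all genes was -0.19. There 0 members were positive and 2 negative, against 85 and 679 of all 9888 genes. These values and those of the pairwise comparisons come from the same libraries. The low level of Psme3 and the high level of Psma2 on the putative ruptured side enter each of them.

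**Figure D5:**
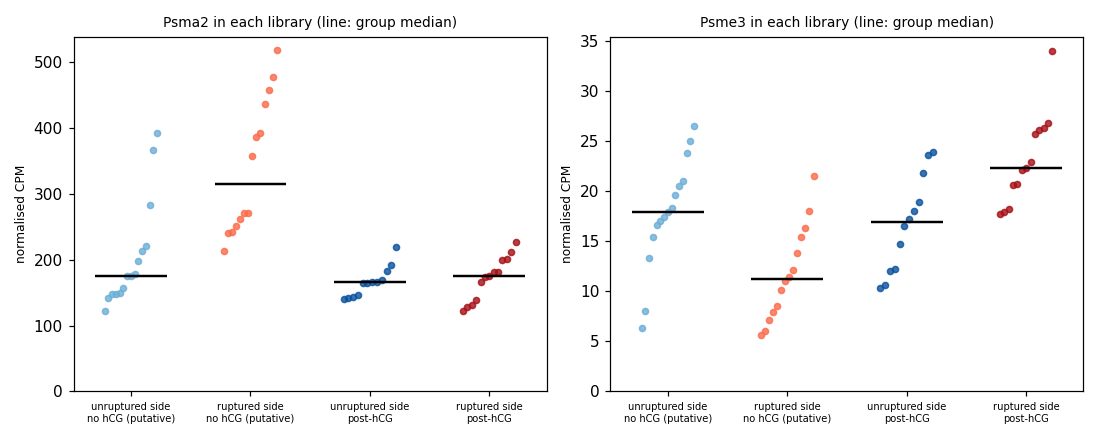
Normalised CPM of Psma2 (left) and Psme3 (right) in each library of the 4 groups, with the group median as a line. Psma2 is highest on the putative ruptured side at a median of 314 CPM against 166 to 176 CPM in the other groups, and Psme3 is lowest there at 11.2 CPM and highest on the ruptured side post-hCG at 22.4 CPM.

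Set against the promoter windows, Psma2 and Psme3 both held CCAAT, and on the ruptured side one fell with hCG (-0.99) and the other rose (0.94).

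Genes that work with the proteasome were taken as lists. Between the sides, 8.84% of all tested genes rose and 8.96% fell without hCG, and 10% and 11.3% did so post-hCG. Of the 26S partners, which are ubiquitin receptors, shuttles and associated enzymes, 17 were tested in each pairwise comparison. With hCG 3 rose and 3 fell on the unruptured side, against 25.4% and 27.7% of all genes. On the ruptured side 4 rose and 2 fell, against 29.7% and 30.4%. Txnl1, a thioredoxin-like protein of the cap, fell with hCG (-0.49 and -1.04) and was higher on the putative ruptured side (0.65, FDR 0.00027, edgeR). Ubqln1, a shuttle that carries ubiquitin-tagged proteins to the cap, was lower on the putative ruptured side (-0.40, FDR 0.0341), higher on the ruptured side post-hCG (0.35, FDR 0.0247) and rose with hCG on the ruptured side (0.70). Txnl1 and Ubqln1 gave interactions of -0.56 (FDR 0.00896) and 0.75 (FDR 0.00458), 1 gene of the list in each direction. Between the sides 2 rose and 1 fell in each medium.

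Of the regulators of proteasome transcription and assembly, 9 were tested. Nfe2l1 (Nrf1), the factor that raises subunit genes when proteasome activity is short, rose with hCG on the unruptured side (0.51, SE 0.12, FDR 0.000451, edgeR) and was higher on the putative ruptured side (0.42, FDR 0.0362). Nfe2l2 (Nrf2), the oxidative stress factor, fell on both sides (-0.44 and -0.71, FDR 0.000241 and 3.15e-07). Bach1, a repressor at the same elements, rose on both (0.73 and 0.40), and Ngly1, which activates Nrf1, fell on both (-0.37 and -0.37). Akirin2, which brings the proteasome into the nucleus, was higher on the ruptured side post-hCG (1.01, SE 0.28, FDR 0.00796), with an interaction of 1.04 (FDR 0.0314). With hCG it fell on the unruptured side (-0.83, FDR 0.0124) and did not pass on the ruptured side (0.23, FDR 0.254). Its group medians were low, at 2.92 to 6.71 CPM. In all, 3 of the 9 rose and 3 fell on the unruptured side, against 25.4% and 27.7% of all genes. On the ruptured side 3 rose and 2 fell, against 29.7% and 30.4%. Between the sides 1 rose and 0 fell without hCG, and 1 rose and 2 fell post-hCG.

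Among 10 ubiquitin and E1 genes, hCG gave 0 higher and 2 lower genes on each side. Over all genes the shares were 25.4% and 27.7% (unruptured) and 29.7% and 30.4% (ruptured). Uba7, the activating enzyme of the interferon-induced modifier ISG15, fell on both (-0.71, FDR 0.00266 and -1.01, FDR 0.000269, edgeR). Post-hCG, 2 rose and 2 fell between the sides among 9 tested.

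The MHC class I and interferon genes, which share their inducer with the immunoproteasome, moved mostly downward with hCG where they passed. On the unruptured side 1 of 12 tested rose, Tap1 (0.38, FDR 0.045, edgeR), and 7 fell, against 25.4% and 27.7% of all genes. On the ruptured side 0 of 10 rose and 7 fell, against 29.7% and 30.4%. B2m, the light chain of MHC class I, went from medians of 130 and 235 CPM to 51.4 and 59.1 CPM (-1.51, FDR 4.94e-09 and -1.93, FDR 5.97e-12, edgeR), with no overlap between the media on either side. Tapbp, which loads peptides onto MHC class I, fell by 1.08 and 0.74. H2-K1, a heavy chain, was higher on the putative ruptured side (0.99, FDR 0.000312) and fell with hCG on the ruptured side by 1.03 (FDR 6.01e-05). With hCG on the unruptured side H2-K1 did not pass (-0.30, FDR 0.107), and H2-D1, also on the list, passed on neither side (0.18 and -0.11). The interferon genes Isg15, Ifit1 and Ifit3 had too few counts to be tested with hCG. Without hCG 4 genes of 12 were higher on the putative ruptured side and 1, Gbp2, lower, whereas 1 rose and 1 fell among 10 post-hCG. B2m and H2-K1 were thus higher on the putative ruptured side (0.68 and 0.99), where Psmb10 was lower (-0.46).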

How the data were processed

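Smart-Seq2 libraries of 54 follicle sides were made by the authors, who mapped the read pairs with HISAT2 (build GRCm38) and used ComBat-seq against batch effects. The deposited tables hold estimated counts per gene (72.2% of non-zero values whole) and TPM, which the authors scaled by length and library. Whether they precede the batch correction, and the counting program and annotation, are not given in the sources used here. The groups follow the labels. For the tests the estimated counts were rounded. The edgeR package (version 4.0.16, R 4.3.3) kept genes by its expression filter with a count of 10 and a total of 15 as minima, applied TMM factors, and gave quasi-likelihood F-tests whose p-values were adjusted by Benjamini-Hochberg over all genes tested (FDR 0.05). Each pair of groups was fitted on its own and the interaction over all 4. DESeq2 1.42.0 and limma 3.58.1 on log2(TPM + 1) or log2(TPM + 0.1) were alternatives. The test was checked on simulated data. Levels are TMM-normalised CPM over the 54 libraries, and TPM where genes are compared. No 2 libraries of a group agreed within sampling noise. Values were named for the catalytic, activator and inhibitor genes and for the largest called changes per comparison. The genes and lists were chosen with earlier results of these data known. Sums of marker genes, motif matches and correlations are descriptions. Some genes of the lists are not reported here.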

Additional observations from a re-analysis of the deposited data

Results flagged for a closer look

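The response to hCG differed between the sides for 2 of the 46 genes, by the test of the difference itself, 1 higher and 1 lower, against 4.25% and 4.65% of all 10013 genes tested. For Psma2 the response on the ruptured side minus that on the unruptured side was -0.69 on the log2 scale (FDR 0.0262, edgeR's interaction test). It fell by 0.99 on the ruptured side, and the unruptured side gave -0.31 (FDR 0.0892). For Psme3 the difference was 1.05 (FDR 0.00336), with 0.94 on the ruptured and -0.11 on the unruptured side.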

How the results depend on the processing

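Of 2199 values of single genes under the alternatives, 2045 kept their direction and their side of the threshold, 84 passed it newly, 60 no longer passed it and 10 reversed; the cause was not tested. Without hCG between the sides, 0 members were lower in limma with either pseudocount and 1 in thinned counts. Post-hCG, 0 were higher with library totals or in the joint fit, and 12 (library totals), 18 and 18 (limma with a pseudocount of 1 and 0.1) and 1 (thinned counts) were lower. Over all genes, 1830 of 8585 (library totals), 2166 and 2145 of 9624 (limma) and 817 of 7555 (thinned counts) were lower. With hCG, library totals gave 2 higher and 22 lower on the unruptured and 2 higher and 29 lower on the ruptured side, where limma gave 4 and 4 higher. Among all genes, library totals gave 1455 higher and 3844 lower of 9320 (unruptured) and 1376 and 4242 of 8531 (ruptured). For the interaction, no filter left 0 negative, and limma gave 0 and 0 positive and 2 and 2 negative. Of all 9888 genes limma gave 85 and 86 positive and 679 and 716 negative. Leaving out 1 library gave 1 to 2 higher and 1 to 4 lower (sides without hCG), 1 to 3 and 0 to 1 (sides post-hCG), 5 to 7 and 7 to 11 (hCG, unruptured) and 8 to 10 and 12 to 16 (hCG, ruptured). Calls over all genes were not counted in these fits. Reversed values were Psma2 between the sides post-hCG in limma (-0.26 and -0.27) and, with library totals on the ruptured side, Psmd2 (-0.12), Psma6 (-0.27), Psmd6 (-0.31), Psmd13 (-0.31), Psmc2 (-0.30), Psmd8 (-0.02), Psmd7 (-0.27) and Psma3 (-0.06).

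Same-numbered libraries did not deviate together (median correlations of -0.07, -0.02, 0.00 and 0.04 in the 4 pairwise comparisons, with 2, 3, 1 and 3 libraries correlating best with their own number). With the replicate block, 1 member rose and 2 fell between the sides without hCG, against 702 and 703 of all 8992 genes. Post-hCG 1 rose and 0 fell, against 805 and 928 of 8520. With hCG 5 rose and 7 fell on the unruptured side, against 2112 and 2266 of 9098. On the ruptured side 9 rose and 14 fell, against 2450 and 2484 of 8425. In the interaction 1 was positive and 1 negative, against 305 and 407 of 9794.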
